A study of Oryza sativa Japonica Group with 8 samples.

Results

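Among 41805 loci measured in rice organs, 57 stood at least 8-fold higher in flag leaves after flowering and in a later library labelled as roots than in both the leaf and the root library taken before flowering. These 57 loci are described here by their levels in leaves, roots, inflorescences and seeds and by their place among neighbouring loci. A locus was chosen where it was at least 300 bp long, where both later libraries reached at least 10 FPKM, and where the lower of those 2 values was at least 8 times the higher of the 2 earlier values, with 1 FPKM added to each. FPKM is a read level scaled to locus length and to the reads of the library. Loci that start in 2 regions were left out, on chromosome 1 from 0.8 to 1.01 Mb and on chromosome 9 from 13.8 to 14.4 Mb. These held 5 more loci that met the limits. The members were thus 0.15% of the 38124 loci of at least 300 bp. They were 0.411% of the 13853 such loci outside the 2 regions that reached 10 FPKM in both later libraries, and the other 13796 of these serve below as the comparison set.

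The series profiled polyadenylated RNA of Oryza sativa ssp. Japonica grown in a greenhouse. Flag leaves and roots were each collected before flowering, as a mixture of stages from the start of panicle formation to the day before flowering, and after flowering, again as mixed stages. The other 4 libraries came from flower buds, from flowers on their day of opening, and from milk grains and mature seeds. With 1 library for each of the 8 groups, no difference given here has a replicate check, and values are compared without a test.

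The flag leaf is the uppermost leaf of a rice shoot and a main source of sugars for the filling grain. As it ages after flowering, its proteins and chlorophyll are broken down and their nitrogen moves to the seeds. Milk grains are immature grains whose endosperm is still fluid, and mature seeds have dried. In whole organs, fewer cells of a type and less RNA per cell cannot be told apart. The table pairs its loci with no gene names, and none of its identifiers was found among 39387 genes of a RefSeq table on another assembly, ASM3414082v1. The members are therefore named by identifier and by position on Release 7 of the MSU rice annotation, and their functions, exons and sequences are not given.

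The library labelled roots after flowering stood apart from its label. Across all loci, which are not independent replicates, it correlated at 0.959 (Spearman) with leaves after flowering and at 0.633 with roots before flowering. Steps in the values of 101 bp loci, where all 212 values checked came out as whole multiples (tolerance 0.03), put its depth at 7.57 to 7.79 times that of mature seeds, against 1.63 to 2.85 times for the remaining 6. The sources used here give no read totals, so the depth behind a single value is unknown. Without that library, 143 loci met the rule on leaves after flowering alone, and with the 2 leaf libraries alone 308 did. Both settings only drop conditions from the rule, so all 57 members are in both sets by construction. Any statement on roots after flowering rests on the label of that library.

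The values that chose the members are a description only. Over the 57 loci, leaves before flowering ranged from 0 to 168 FPKM with a median of 3.26, and roots before flowering from 0 to 92.3 FPKM with a median of 0.725. Leaves after flowering ranged from 13.8 to 12109 FPKM with a median of 87.1, and the labelled roots from 11.7 to 8077 FPKM with a median of 51.6. By the rule the 2 pairs of libraries do not overlap at any member. At least 8-fold higher after flowering were 1.24% of loci of at least 300 bp and 1 FPKM in the leaf pair and 5.58% in the root pair, against 57 of 57 members in each by choice. Of 308 loci that were 8-fold higher in the leaf pair, at 10 FPKM or more after flowering and outside the 2 regions, 57 (18.5%) were members. Another 57 were under 10 FPKM in the labelled roots, 152 were above that but less than 8-fold over roots before flowering, and 42 were 8-fold higher in both pairs but failed the limit across pairs. In the opposite direction, 44 loci stood at least 8-fold lower in both later libraries than in both earlier ones.

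**Figure D1:**
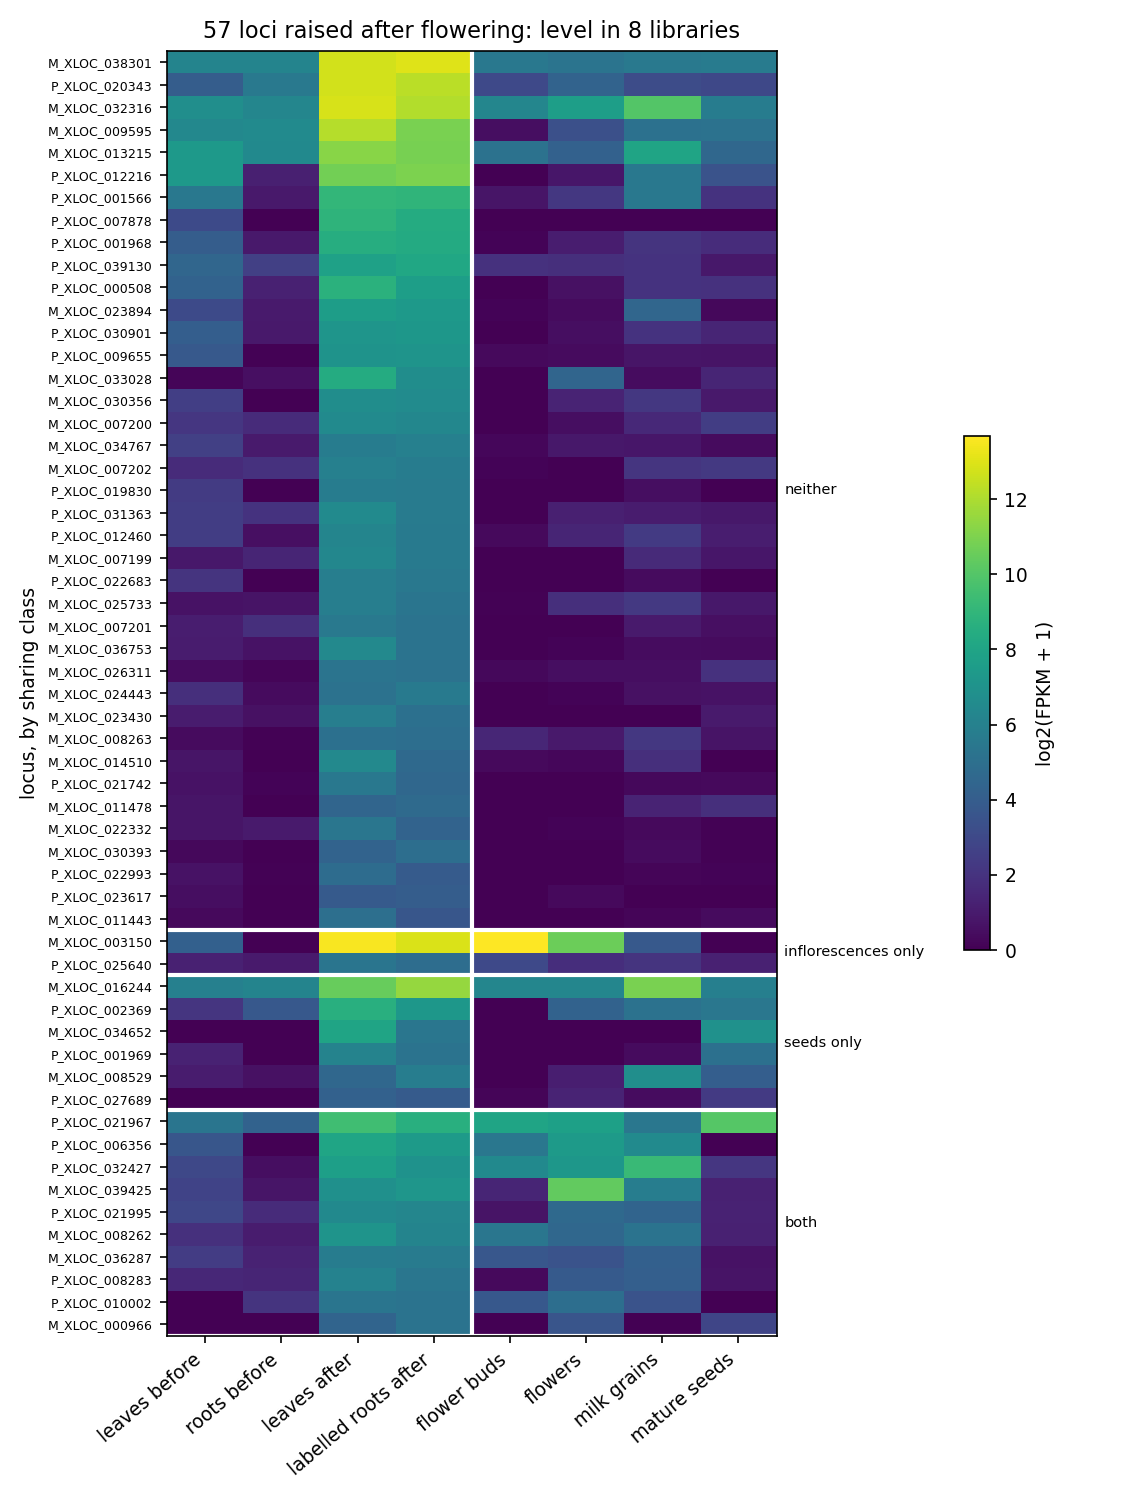
Level of the 57 members (rows) in the 8 libraries (columns), as log2(FPKM + 1), with 1 library per column. Rows are grouped by whether a member also reached within 4-fold of its lower later value in inflorescences, in seeds, in both or in neither; in the 39 rows of the first block the 4 flower and seed columns stay dark beside the 2 bright columns after flowering, apart from partial levels in a few rows.

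Before flowering, the members leaned to leaves over roots. Leaves before flowering were above roots before flowering at 42 members, below at 12 and equal at 3. Where either library reached 1 FPKM, leaves were above at 33 members and below at 10. The same counts were 8309 and 5486 in the comparison set, and 14829 and 15236 over all loci of at least 300 bp. On the FPKM + 1 scale, 14 of 57 members (24.6%) were at least 4-fold higher in leaves, as were 16.4% of the comparison set and 9.3% of all loci of at least 300 bp. At least 4-fold lower was 1 member, against 7.23% and 13.5%. The comparison set thus leaned to leaves as well. The rule set a ceiling on both values, so nothing further is read from these shares. Roots before flowering were listed at 0 for 14 members, leaves before flowering for 4, and both for 3. A value listed at 0 in a table without counts can be a failed estimate as well as an absence of reads.

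The 2 later libraries were both used by the rule, so their levels at the members are a description only. On the FPKM + 1 scale 46 of 57 were within 2-fold of each other, no member was at least 4-fold higher in the labelled roots and 1 was lower, where 0.27% and 0.367% of all loci of at least 300 bp were. The median log2 ratio of labelled roots over leaves was -0.34 over the members, -0.054 over the comparison set and 0 over all loci of that length. Leaves were the higher of the 2 at 43 members and the labelled roots at 14. In the comparison set leaves were the higher at 7856 loci and the labelled roots at 5940. Over the 26047 loci of at least 300 bp that reached 1 FPKM in either, the counts were 13864 and 12183. How many other loci were within 2-fold was not counted, so the 46 of 57 is not read as a trait of the members. The member that was 4-fold lower was M_XLOC_034652 (chr7:20210959-20211797, minus strand), at 250 FPKM in leaves and 39.8 in labelled roots, and it is described with the seed members below. M_XLOC_014510 (chr2:5756930-5757540, minus strand) came next, at 87.1 and 24.95 FPKM. The widest differences the other way were at M_XLOC_008529 (chr11:6126238-6127185, minus strand), with 23.0 FPKM in leaves and 54.0 in labelled roots, and at M_XLOC_016244 (chr2:24133183-24146727, minus strand), with 1435 and 2912 FPKM.

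**Figure D2:**
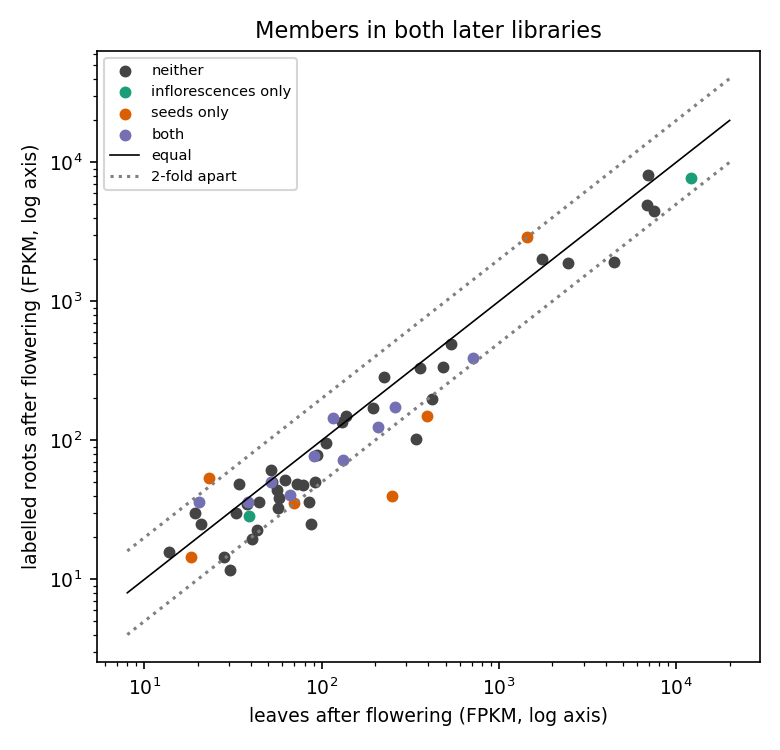
FPKM of each of the 57 members in leaves after flowering (horizontal, log axis) and in the library labelled roots after flowering (vertical, log axis), 1 library each, coloured by sharing class. Most points lie between the dotted lines that mark 2-fold, and the orange point furthest under them is M_XLOC_034652, at 250 and 39.8 FPKM.

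The flower and seed libraries took no part in the rule. The sharing measure below sets them against the lower later value, which the rule did use, so the classes are not independent of the choice of members. A member was counted as shared with inflorescences where the higher of its flower bud and flower values, with 1 FPKM added, was at most 4-fold under the lower later value with 1 added, and likewise as shared with seeds for milk grains and mature seeds. By this measure 39 of 57 members (68.4%) were shared with neither, against 7.34% of the comparison set. Shared with both were 10 members (17.5%), against 85.7% of the comparison set. Seeds alone shared 6 members (10.5% against 2.49%) and inflorescences alone shared 2 (3.51% against 4.49%). These shares over all 13853 loci, members included, were 7.59% for neither, 85.4% for both, 2.52% for seeds and 4.49% for inflorescences. The rule kept loci low in 2 organs before flowering, while the comparison set was not so limited, and what that does to these shares was not tested.

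At the median, the members were lower than all loci of at least 300 bp in each flower and seed library, most widely in flower buds. The median member stood at 0.0923 FPKM in flower buds, 1.12 in flowers, 3.05 in milk grains and 1.11 in mature seeds, where the comparison set had medians of 27.3, 27.0, 29.5 and 29.5 FPKM. Over all loci of at least 300 bp the medians were lower, at 6.05, 5.65, 5.46 and 3.33 FPKM. At least 1 FPKM was reached by 16 members (28.1%) in flower buds, 29 (50.9%) in flowers, 37 (64.9%) in milk grains and 29 (50.9%) in mature seeds, and by 91.8% to 97.5% of the comparison set in these libraries. The comparison set was itself chosen for at least 10 FPKM in both later libraries. Of all 41805 loci of any length, 30200 reached 1 FPKM in flower buds, 29669 in flowers, 29246 in milk grains and 25914 in mature seeds. In each library this is a smaller share than in the comparison set. The shares of members at 1 FPKM are therefore not read as a trait of the members. All 4 flower and seed libraries were under 1 FPKM at 14 members (24.6%), against 1.23% of the comparison set. That share was not counted over all loci, so it is not read as a trait of the members. Flower buds were listed at 0 for 24 members, flowers for 10, milk grains for 4 and mature seeds for 8. Among these 4 libraries the highest value was in milk grains for 28 members, in mature seeds for 15, in flowers for 11 and in flower buds for 3. Values of 0 and the highest library were not counted over other loci, so neither is read as a trait of the members.

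The 39 members shared with neither organ included 6 of the 8 members that reached 1000 FPKM in both later libraries. Their median was 85.0 FPKM in leaves after flowering and 49.9 in labelled roots, but 3.48 in leaves and 0.625 in roots before flowering, 0.405 in flowers and 1.93 in milk grains. M_XLOC_038301 (chr8:25652018-25682411, minus strand) was at 6940.2 FPKM in leaves after flowering and 8077 in labelled roots, at 69.9 and 71.1 FPKM in leaves and roots before flowering, and at 42.9 in flower buds, 37.3 in flowers, 44.6 in milk grains and 51.3 in mature seeds. Its 6 low values thus lay within 37.3 to 71.1 FPKM, and both later values were far above them. P_XLOC_020343 (chr3:31281909-31285289, plus strand) was at 6795 FPKM in leaves after flowering and 4952 in labelled roots, against 15.1 in leaves and 45.3 in roots before flowering, 7.14 in flower buds, 19.3 in flowers, 7.93 in milk grains and 6.68 in mature seeds. No flower or seed value of this locus came near its later leaf value. It holds the 109 bp locus P_XLOC_020344 on its own strand, at 764 and 3982 FPKM in the leaf pair and 305 and 2200 in the root pair. That inner locus was at 226 FPKM in flowers and 578 in milk grains, and listed at 0 in flower buds and mature seeds. P_XLOC_020345, also inside, was at 0.850 and 14.8 FPKM in the leaf pair. How reads were divided among them is not stated in the sources used here.

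M_XLOC_032316 (chr6:29508824-29524007, minus strand) also had an intermediate level in immature grain. It was at 7454 FPKM in leaves after flowering and 4427 in labelled roots, at 107 and 77.2 FPKM in leaves and roots before flowering, and at 77.0 in flower buds, 198 in flowers, 1014 in milk grains and 52.4 in mature seeds. Milk grains were the highest of its 6 remaining libraries and 4-fold and more under both later values. M_XLOC_013215 (chr12:26912974-26922761, minus strand) likewise had milk grains next below the 2 later libraries, but its lowest value was in flowers. It was at 2441 FPKM in leaves after flowering and 1897 in labelled roots, at 163 and 89.5 in leaves and roots before flowering, and at 34.0 in flower buds, 17.9 in flowers, 256 in milk grains and 22.5 in mature seeds.

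The 8-fold limit set the lower end of the list. P_XLOC_030901 (chr6:23065321-23069574, plus strand) was just inside, from 16.2 to 137 FPKM in the leaf pair and from 0.887 to 149 in the root pair, a ratio of 8.04 under the rule. M_XLOC_034767 (chr7:21395148-21397448, minus strand) came next, at 5.08 and 51.8 FPKM in leaves, 0.978 in roots before flowering and 61.0 in labelled roots, a ratio of 8.69. Both were under 4 FPKM in every flower and seed library. Just outside were M_XLOC_023890 (chr4:18042102-18057765, minus strand), with a ratio of 7.98, and P_XLOC_009994 (chr11:28142192-28180374, plus strand), with 7.92. The former went from 61.3 to 678 FPKM between the leaf libraries and from 14.2 to 496 in the root pair. The latter went from 55.1 to 842 FPKM in the leaf pair and from 0.948 to 443 in the root pair. The median ratio of the members was 14.7, and 24 of them reached 16 or more.

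Flowers and flower buds could be compared at 30 members, those with at least 1 FPKM in either library. Of all 57 members, 8 (14.0%) were at least 4-fold higher in flowers, 1 (1.75%) was lower and 48 were neither, 27 of these being under 1 FPKM in both. Among all loci of at least 300 bp 1.89% were higher and 2.2% lower with the same denominator, and 2.44% and 2.83% of the 29590 loci that reached 1 FPKM. In the comparison set 1.68% were higher and 0.892% lower. The median log2 ratio was 1.18 over the 30 members that could be compared and 0.15 over all 57, against -0.056 over the 29590 loci. Since both libraries are low at most members, the counts rest on few loci.

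M_XLOC_039425 (chr9:5643294-5645523, minus strand) had the widest difference between these 2 libraries, from 1.62 FPKM in buds to 1336 in flowers. It stood at 116 FPKM in leaves after flowering, 144 in labelled roots and 55.5 in milk grains, and at 5.70 in leaves before flowering, 0.725 in roots before flowering and 1.38 in mature seeds. Its flower value was thus above both later values. P_XLOC_021995 (chr4:5161917-5167631, plus strand) was at 0.648 FPKM in buds and 24.6 in flowers, with 20.2 in milk grains and 1.52 in mature seeds, beside 90.2 FPKM in leaves after flowering and 77.2 in labelled roots. At 6.56 and 2.20 FPKM in leaves and roots before flowering, it shared with M_XLOC_039425 low buds, low mature seeds and intermediate milk grains. P_XLOC_021995 holds 5 shorter loci on its own strand, and how reads were divided among them is not stated in the sources used here. Among these, the 105 bp locus P_XLOC_021999 was at 2174 FPKM in labelled roots and 726 in milk grains, but listed at 0 in leaves after flowering. In the opposite direction, only M_XLOC_003150 passed 4-fold among the 57, and it is described with the nested members below.

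Mature seeds and milk grains could be compared at 43 members. Of all 57, 15 (26.3%) were at least 4-fold lower in mature seeds, 4 (7.02%) were higher and 38 were neither, 14 of these being under 1 FPKM in both. With the same denominator 12.8% of all loci of at least 300 bp were lower and 7.87% higher, and 16.5% and 10.1% of the 29747 loci that reached 1 FPKM. In the comparison set 13.7% were lower and 6.34% higher. The share of members higher in mature seeds was thus near the background. Mature seeds were the shallowest library, and what depth does to values near 0 was not tested. The median log2 ratio was -1.11 over the 43 members and -0.41 over all 57, against -0.18 over the 29747 loci. When libraries were rescaled to equal sums over loci of at least 300 bp, the median of all loci moved to -0.61 and that of the members to -1.42, so that the members stood 0.94 below all loci as deposited and 0.81 below after rescaling.

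**Figure D3:**
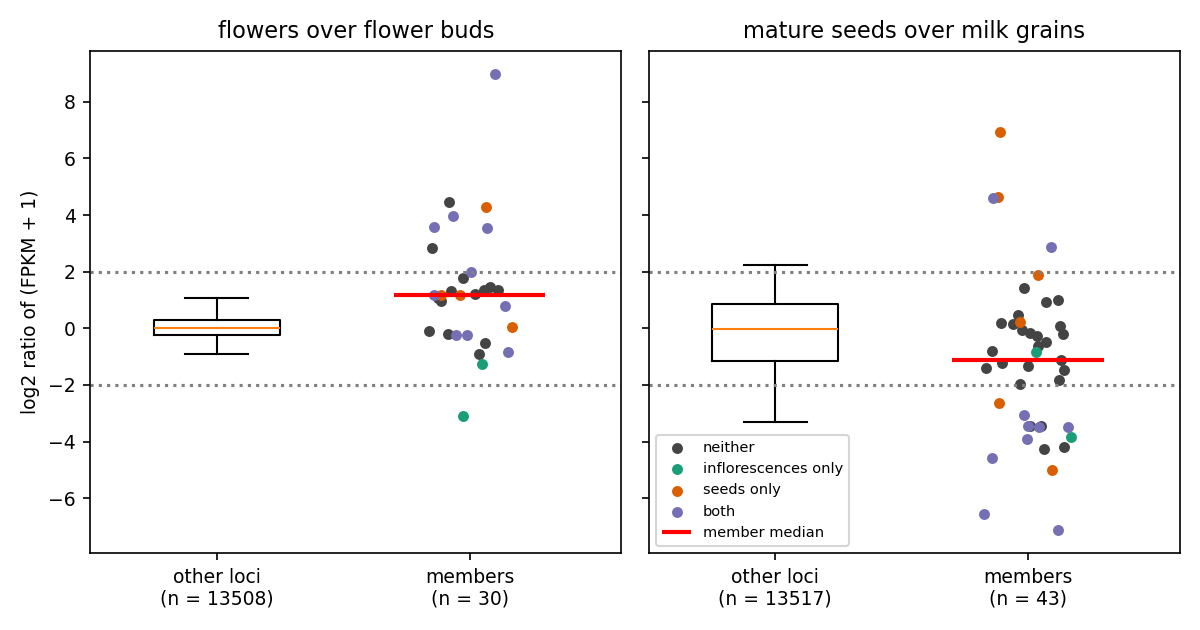
Log2 ratio of (FPKM + 1) in flowers over flower buds (left) and in mature seeds over milk grains (right), for members with at least 1 FPKM in either library (points, coloured by sharing class, red line at their median) and for the comparison set (box from the 25th to the 75th percentile, whiskers to the 5th and 95th). Dotted lines mark 4-fold; the members' medians are 1.18 on the left and -1.11 on the right, and the highest point on the left is M_XLOC_039425.

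Milk grains carried several of the 10 members shared with both organs. P_XLOC_032427 (chr7:2453960-2456621, plus strand) was at 625 FPKM in milk grains and 3.46 in mature seeds, with 87.5 in flower buds, 152 in flowers, 206 in leaves after flowering and 126 in labelled roots, against 6.66 and 0.423 in leaves and roots before flowering. Its lowest values were therefore those of the organs before flowering and of dry seed. P_XLOC_006356 (chr10:14657795-14658230, plus strand) was at 92.8 FPKM in milk grains and listed at 0 in mature seeds, with 41.8 in flower buds, 171 in flowers, 259 in leaves after flowering and 173 in labelled roots, against 11.5 in leaves and 0 in roots before flowering. P_XLOC_021967 (chr4:4749120-4757768, plus strand) had the opposite seed pattern. It was at 42.2 FPKM in milk grains and 1056.5 in mature seeds, with 255 in flower buds, 215 in flowers, 713 in leaves after flowering and 389 in labelled roots, against 38.4 and 18.4 in leaves and roots before flowering. Of the 10 members in this class, 8 were at least 4-fold lower in mature seeds than in milk grains, 2 were higher, and 5 were at least 4-fold higher in flowers than in flower buds. Over the whole comparison set 13.7% were lower and 6.34% higher in mature seeds, and 1.68% were higher in flowers. The class admits a locus through the higher value of each pair, and its other loci were not counted this way, so nothing is read from these counts.

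The 6 members shared with seeds alone were of both kinds: 2 were higher by 4-fold or more in mature seeds than in milk grains and 2 were lower. This class too admits a locus through the higher of its seed values, so these counts are a description only. M_XLOC_016244, already named for its labelled root level, was at 1907 FPKM in milk grains and 59.2 in mature seeds. Its flower bud and flower values were 75.2 and 77.9 FPKM, close to 61.9 in leaves and 70.9 in roots before flowering. M_XLOC_008529 was at 105 FPKM in milk grains and 15.9 in mature seeds, so that its milk grain value was above both later values, and it stood at 1.26 FPKM or less in flower buds, flowers, and leaves and roots before flowering. It lies within the longer locus M_XLOC_008527 on the same strand, which was at 28.9 FPKM in milk grains and 58.7 in mature seeds. That outer locus was at 34.1 and 29.6 FPKM in the leaf pair and at 16.8 and 36.8 in the root pair. M_XLOC_034652 was listed at 0 in flower buds, flowers, milk grains, and leaves and roots before flowering, while mature seeds stood at 120.2 FPKM. Its 3 values above 0 were thus leaves after flowering, labelled roots and mature seeds. P_XLOC_002369 (chr1:24392841-24393423, plus strand) was near level in grain, at 35.2 FPKM in milk grains and 41.2 in mature seeds, with 0 in flower buds and 18.6 in flowers. Its leaf values were 3.26 FPKM before and 390.2 after flowering, and the root pair stood at 12.4 and 149.

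Many members lay inside a longer locus on the same strand. Of the 57, 16 (28.1%) did, against 3.91% of the comparison set and 7.52% among all loci of that length. Reads in the shared span can be assigned to either locus, and the sources used here do not say how the authors' processing divided them. The 16 members lay in 13 longer loci, of which 2 were members themselves and 11 were not. For those 11 the log2 ratio under the rule, the lower later over the higher earlier value with 1 added, ran from -0.87 to 2.996 with a median of 1.75, and 3 of the 11 were past 4-fold. In the leaf pair alone 9 of the 11 passed 4-fold upwards, and in the root pair 7 did. Nested members had a median length of 560 bp and the other 41 members one of 2707 bp. Members under 1000 bp made up 36.8%, against 7.77% of the comparison set and 26.4% of all loci of at least 300 bp.

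M_XLOC_003150 (chr1:24697101-24697464, minus strand) was the nested member with the highest level. It was at 12109 FPKM in leaves after flowering and 7757 in labelled roots, at 13056 in flower buds and 1528 in flowers, at 17.6 in leaves before flowering and 13.4 in milk grains, and was listed at 0 in roots before flowering and in mature seeds. The locus around it, M_XLOC_003149 (chr1:24695407-24698045), was at 7.78 FPKM in leaves after flowering and 14.6 in labelled roots, 117 in flower buds, 75.2 in flowers, 13.0 in leaves before flowering, 0.161 in roots before flowering, 20.6 in milk grains and 0.518 in mature seeds. The 2 loci agreed in having high flower buds and low mature seeds, but in leaves the outer locus was lower after flowering, and its labelled root value was far under that of the inner locus. P_XLOC_025640 (chr5:2148201-2148501, plus strand), the other member shared with inflorescences alone, was nested too. It was at 7.22 FPKM in flower buds, 2.45 in flowers, 1.35 before and 39.1 after flowering in the leaf pair, 0.991 and 28.6 in the root pair, 3.21 in milk grains and 1.37 in mature seeds. Its outer locus P_XLOC_025638 was at 13.4 and 253 FPKM in the leaf pair, 26.2 and 114 in the root pair, 96.1 in flower buds and 28.7 in flowers, so that both were higher after flowering and higher in buds than in flowers.

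**Figure D4:**
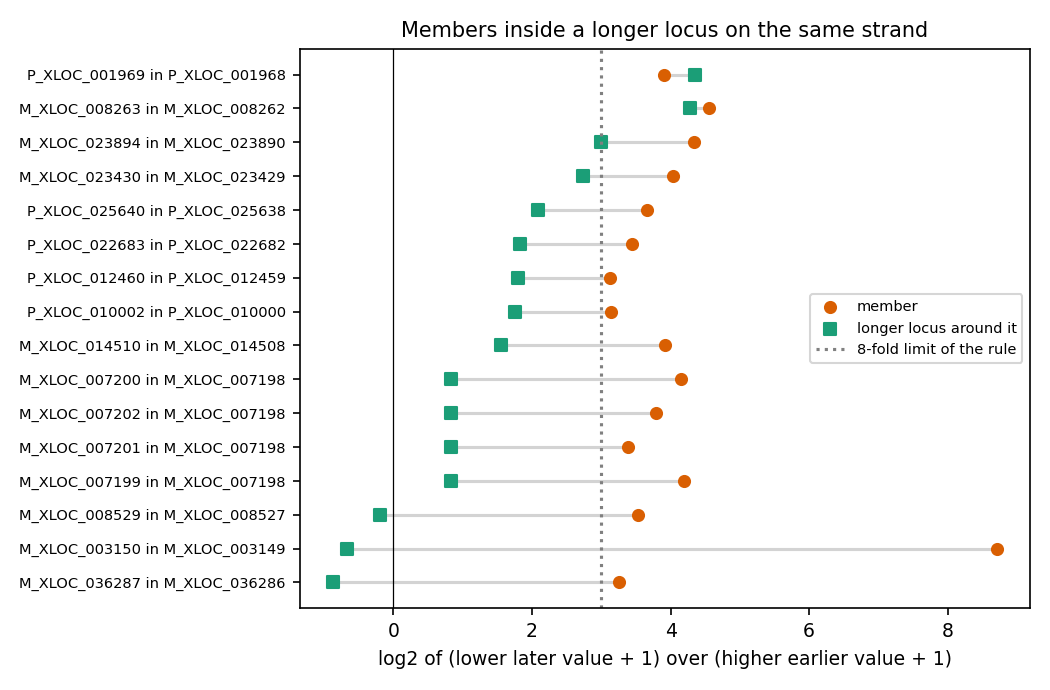
For the 16 members that lie inside a longer locus on the same strand, the log2 of (lower later value + 1) over (higher earlier value + 1) of the member (orange circle) and of the longer locus (green square). Circles lie past the dotted 8-fold line by choice; 3 squares lie below 0 and 2, those of the longer loci that are members too, lie past the line, while the square of M_XLOC_023890 sits just under it at 2.996.

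Of the members, 8 had another member within 50 kb, and each of the 8 was nested in another locus or held one. The group with the most members was on chromosome 10, from 19730576 to 19733896 on the minus strand. There M_XLOC_007199 (chr10:19730576-19730978) went from 0.815 to 78.3 FPKM in the leaf pair and from 1.68 to 48.0 in the root pair. M_XLOC_007200 (chr10:19731031-19731355) was at 3.48, 93.9, 2.23 and 78.2 FPKM in the same order. Next to them, M_XLOC_007201 (chr10:19731590-19732658) was at 1.12, 44.5, 2.54 and 36.1 FPKM. All of these and the following locus kept to one pattern, with no flower value above 0.444 FPKM and no seed value above 4.57. M_XLOC_007202 (chr10:19732766-19733896) was at 2.24, 61.8, 2.82 and 51.6 FPKM. They all lie within M_XLOC_007198 (chr10:19728210-19735041), which was no member, with 21.4 and 608 FPKM in the leaf pair and 142 and 253 in the root pair. The 4 members are therefore parts of 1 place, not separate observations. The other pairs were P_XLOC_001969 (chr1:20124926-20125332) within P_XLOC_001968, and M_XLOC_008263 within M_XLOC_008262 on chromosome 11. P_XLOC_001969 was at 0.299 FPKM in milk grains and 31.6 in mature seeds, while P_XLOC_001968 around it was at 3.09 and 2.38, so the outer locus did not share the seed difference of the inner one. Counting each shared longer locus once, the 57 members lie at 52 places.

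M_XLOC_023894 (chr4:18055264-18056159), chosen for mention after its values were seen, lay within M_XLOC_023890, the locus just outside the limit. In the 2 leaf libraries the inner locus went from 7.502 FPKM before to 196 after flowering, and the outer one from 61.3 to 678. M_XLOC_036287 (chr8:3339055-3340335) and its outer locus M_XLOC_036286, likewise mentioned after their values were seen, differed in the root pair. The member was at 1.48 FPKM in roots before flowering and 50.3 in labelled roots, and the outer locus was at 1286 and 705. In leaves both were higher after flowering, at 4.38 and 51.7 FPKM for the member and at 142 and 1691 for the outer locus.

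A locus on the opposite strand overlapped 21 members (36.8%), against 23.1% of the comparison set and 24.1% among all loci of that length. The 22 loci on the other strand were not members. Their median log2 ratio under the rule was 0.11, and 4 of 22 were past 4-fold, of which 2 were past 8-fold. The 4 were M_XLOC_012827, M_XLOC_020743, P_XLOC_009115 and P_XLOC_021637, named for this count. The 2 past 8-fold were M_XLOC_012827 (172 bp) and P_XLOC_021637 (196 bp). Both passed 10 FPKM in the 2 later libraries and failed the rule only by length. M_XLOC_020743 (chr3:26032940-26033802, minus strand) overlapped P_XLOC_019830 by 100 bp and went from 30.7 to 286 FPKM in the leaf pair and from 37.2 to 201 in the root pair. P_XLOC_019830 (chr3:26033703-26034127, plus strand) was at 4.13 and 52.2 FPKM in the leaf pair and at 0 and 49.9 in the root pair. In flower buds, flowers, milk grains and mature seeds M_XLOC_020743 stood at 15.6, 224, 364 and 99.2 FPKM, while P_XLOC_019830 was at 0.444 FPKM in milk grains and listed at 0 in the other 3. Both loci were thus higher after flowering in leaves and in the root pair, but M_XLOC_020743 was also high in flowers and grain and P_XLOC_019830 was not. The remaining 3 were listed at 0 in both earlier libraries and in all flower and seed libraries. The libraries were made with a stranded kit, and the part of reads assigned to the wrong strand was not tested.

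By level, 8 members stood at 1000 FPKM or more in both later libraries, 14 at 100 to 1000 and 35 under 100. Of the 8 most abundant, 5 were 5000 bp or longer, and of the other 49 members 7 were. Loci of this length made up 21.1% of all members, 35.2% of the comparison set and 21.9% of all loci of at least 300 bp. Beyond those described, the 8 included M_XLOC_009595 (chr11:18425778-18432595, minus strand) and P_XLOC_012216 (chr12:20045554-20046313, plus strand), mentioned after their values were seen. M_XLOC_009595 was at 4481 FPKM in leaves after flowering and 1914 in labelled roots, against 83.5 and 92.3 in leaves and roots before flowering, 0.432 in flower buds, 9.23 in flowers, 33.3 in milk grains and 35.1 in mature seeds. P_XLOC_012216 was at 1756 and 2007 FPKM in the later libraries, against 168 in leaves and 1.27 in roots before flowering, 0 in flower buds, 0.752 in flowers, 43.4 in milk grains and 10.5 in mature seeds. Both had their lowest level in flower buds, and P_XLOC_012216 differed in that leaves before flowering already held it well above roots. M_XLOC_038301, at 30394 bp the longest member, holds the shorter locus M_XLOC_038302 (chr8:25655363-25655701) on its own strand. That inner locus stood at 23.7 FPKM before and 20.8 after flowering in the leaf pair and at 17.2 and 30.0 in the root pair. It did not share the later level of the locus around it.

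The members were spread over all 12 chromosomes, with 26 on plus and 31 on minus strands. Chromosome 4 held 11 members (19.3%, against 8.87% of all loci of at least 300 bp) and chromosome 11 held 8 (14.0% against 6.50%). Chromosomes 2 and 3 held 2 each (3.51%, against 11.2% and 11.7%). No test of these shares was run, and members at 1 place count more than once in them.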

How the data were processed

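Polyadenylated RNA was sequenced from 8 libraries, 1 per group, with a stranded kit, per the labels' protocols. The authors deposited 1 table of FPKM values, per its name, with positions on MSU Release 7, per the file headers. Per the submitters' processing notes, the tools were TopHat, Cufflinks and Cuffdiff, with versions, settings and read totals not given in the sources used here. How FPKM at short loci was scaled to length is not stated there either.

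Positions were parsed from the table, members chosen by the stated limits, and ratios taken as log2 of (FPKM + 1), which understates changes of low loci. Comparisons counted loci of at least 300 bp, at least 1 FPKM in either library and at least 4-fold apart. Named loci were the 3 most abundant of each sharing class (both of a class of 2), the 2 widest ratios each way per comparison among members with no value of 0 there and a higher value of at least 10 FPKM, the 2 on each side of the limit, and the largest group of neighbours. The members and rules were chosen with earlier results of these data known. The code of the rule was checked on simulated data without organ differences, in which picked loci were raised far past the limit. That check could hardly fail and says nothing about the members. Alternatives covered the pseudocount, limits, filters, rescaling, overlapping loci and the doubted library. Python 3.11.15, pandas 2.3.3, numpy 2.4.6, scipy 1.17.1 and matplotlib 3.10.9 were used.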

Additional observations from a re-analysis of the deposited data

How the results depend on the processing

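No paired analysis was possible because each group has 1 library. The 57 members became 220 with a 4-fold and 24 with a 16-fold rule, 133 with no length minimum, and, as alternatives chosen after seeing the data, 143 without the library labelled roots after flowering and 308 with the leaf libraries only; 8 further settings gave 47 to 76. Of members compared between flowers and flower buds, 26.7% were 4-fold higher (53.3% with a pseudocount of 0.1, where the median log2 ratio was 2.12 rather than 1.18, and 60% at a 2-fold limit). The 3.33% that were lower is M_XLOC_003150 alone, and the share is 0% without members at 0 before flowering, without those overlapping the opposite strand or without nested ones. Of members compared between mature seeds and milk grains, 34.9% were lower (51.2% at a 2-fold limit, and 62.5% with a median of -3.45 at a 5 FPKM filter, which leaves 24). Without the labelled root library, 21.6% of 74 were higher in flowers and 33.3% of 90 were lower in mature seeds. Between labelled roots and leaves after flowering 1.75% were lower (15.8% at a 2-fold limit, 0% at 8-fold or without members at 0 before flowering). Shared with both organs were 17.5%, or 7.02% at a 2-fold limit. No median changed sign in any setting. Of the named members' flower and seed ratios, 4 crossed 4-fold, all with the pseudocount of 0.1. With 1 library a group, the spread between plants is unknown.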
